A study of Mus musculus with 2 samples.

Results

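The genes described here are the 9 that code for the TEAD transcription factors and the cofactors that bind them: the vestigial-like cofactors Vgll2, Vgll3 and Vgll4, the factors Tead1, Tead2, Tead3 and Tead4, and the coactivators Yap1 (YAP) and Wwtr1 (TAZ). They were chosen by name, not by their values, and make up 9 of the 32285 genes in the count table. The nuclei came from C57BL/6 wild-type mice aged 12 weeks, with 1 library from the gastrocnemius, a large calf muscle, and 1 from the plantaris, a small muscle beneath it. Nuclei were released by mechanical homogenization, sorted on a DNA dye and sequenced with droplet 3' chemistry, so transcripts were counted as unique molecular identifiers (UMIs). The sources used here give neither the number nor the sex of the mice. Muscle, animal and library cannot be told apart, and no comparison below has a replicate or a test.

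TEAD proteins bind the MCAT motif (CATTCC) in promoters and enhancers of muscle genes but activate little on their own. They recruit YAP or TAZ, which the Hippo kinases hold in the cytoplasm, or a vestigial-like protein, which meets TEAD through a short TONDU motif. Vgll2 is enriched in skeletal muscle and is known for a part in fibre-type gene expression, Vgll3 is linked to myogenic and fibroblastic cells, and Vgll4 competes with YAP for TEAD. In muscle, YAP and TAZ are known for roles in stem cell proliferation, growth and the neuromuscular junction.

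The promoter of each gene was read from RefSeq (GRCm38.p6) as 250 bases before to 50 bases after the transcription start, and 7 of the 9 genes had an entry (all but Tead1 and Tead4). CATTCC or its reverse complement GGAATG was found in 5 of these 7 (Tead3, Vgll3, Vgll4, Wwtr1 and Yap1), against 16.6% of 27025 genes with an entry and 14.7% of all 32851 promoters. The E-box CANNTG, which is its own reverse complement and cannot coincide letter for letter with CATTCC, was found in 3 of 7 (Vgll2, Vgll4 and Yap1), against 75.0% of genes and 72.3% of promoters. A match describes these letters only, and its lack says only that they are not in this window. The 4 promoters below belong to genes on whose levels the results below turn, Vgll2, Vgll3 and Wwtr1, and to Yap1, the partner of Wwtr1, with the CATTCC matches of either orientation in capitals and each sequence written 5′ to 3′ on the strand of its gene. The Vgll2 sequence spans chr10:52022252-52022551 on the plus strand and holds no CATTCC match. In Vgll3, at chr16:65814939-65815238 on the plus strand, the match lies 63 bases before the start. In Wwtr1, at chr3:57575861-57576160 on the minus strand, it lies 136 bases before the start, and in Yap1, at chr9:8004547-8004846 on the minus strand, 141 bases before it.
Vgll2: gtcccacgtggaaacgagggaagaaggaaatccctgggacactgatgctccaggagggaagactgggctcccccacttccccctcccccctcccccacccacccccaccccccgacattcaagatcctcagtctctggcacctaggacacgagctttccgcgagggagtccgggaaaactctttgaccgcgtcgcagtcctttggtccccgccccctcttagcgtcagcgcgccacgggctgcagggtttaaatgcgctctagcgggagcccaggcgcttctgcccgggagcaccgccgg
Vgll3: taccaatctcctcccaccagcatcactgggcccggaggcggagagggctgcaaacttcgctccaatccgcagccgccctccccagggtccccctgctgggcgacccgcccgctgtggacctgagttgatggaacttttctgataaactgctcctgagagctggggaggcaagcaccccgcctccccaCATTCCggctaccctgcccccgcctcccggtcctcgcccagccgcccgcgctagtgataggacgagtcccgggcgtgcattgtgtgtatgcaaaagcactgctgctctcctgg
Wwtr1: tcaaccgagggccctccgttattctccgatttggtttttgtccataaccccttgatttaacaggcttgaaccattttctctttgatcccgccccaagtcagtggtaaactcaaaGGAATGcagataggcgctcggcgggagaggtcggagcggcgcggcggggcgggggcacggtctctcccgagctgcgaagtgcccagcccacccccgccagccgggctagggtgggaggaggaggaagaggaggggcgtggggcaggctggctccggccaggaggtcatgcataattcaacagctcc
Yap1: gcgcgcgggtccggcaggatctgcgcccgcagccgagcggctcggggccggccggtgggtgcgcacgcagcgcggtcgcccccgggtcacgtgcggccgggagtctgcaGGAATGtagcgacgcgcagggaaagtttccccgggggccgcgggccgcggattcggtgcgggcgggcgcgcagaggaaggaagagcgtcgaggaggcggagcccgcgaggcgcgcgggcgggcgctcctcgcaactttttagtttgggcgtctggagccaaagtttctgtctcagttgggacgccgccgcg

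The analysis covered 7374 nuclei of the gastrocnemius (median 2260 UMIs) and 9150 of the plantaris (median 2714 UMIs). Of these, 5106 and 5802 were myonuclei, the nuclei inside muscle fibres. They were grouped by their most abundant adult myosin heavy chain (Myh) transcript, with ties left out. This required 3 or more UMIs of Myh1, Myh2, Myh4 and Myh7 together. Myh4 marks the fastest type 2B fibres, Myh1 type 2X, Myh2 type 2A and Myh7 slow fibres. In this order the gastrocnemius held 4574, 131, 174 and 22 nuclei and the plantaris 4182, 764, 569 and 6. Other nuclei were clustered and named from marker genes, so each name means nuclei like that cell type, and none of the 9 genes was among the 2000 variable genes used to cluster. Myh4 nuclei fell mostly in clusters 1, 2 and 8 in the gastrocnemius and in clusters 0 and 5 in the plantaris, and with 1 library per muscle such a cluster may be that library. Myh2 nuclei fell mostly in cluster 9 in the gastrocnemius (144 of 174) and in clusters 9 and 4 in the plantaris (300 and 262 of 569). Levels are given as UMIs of the gene per 1000000 UMIs (CPM) over all nuclei of a class, with 95% intervals that cover counting error only. A gene is called measured in a comparison when both sides together held 20 or more UMIs with 3 or more expected on each.

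The 7 myonuclear markers summed to 93943 and 79624 CPM in myonuclei, against 17427 and 17487 CPM in mesenchymal progenitors. Nuclei of other cells thus hold fibre RNA in this preparation, and the giant sarcomere gene Ttn stood at 10351 and 8005 CPM in macrophages of up to 2500 UMIs, against 50073 and 42481 CPM in myonuclei. In macrophages above 2500 UMIs it reached 33278 and 23788 CPM. For this reason, levels in cells other than myonuclei are given for nuclei of up to 2500 UMIs unless stated, and macrophages, whose nuclei lie outside the fibres, are given beside the fibre levels as the background.

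**Figure D1:**
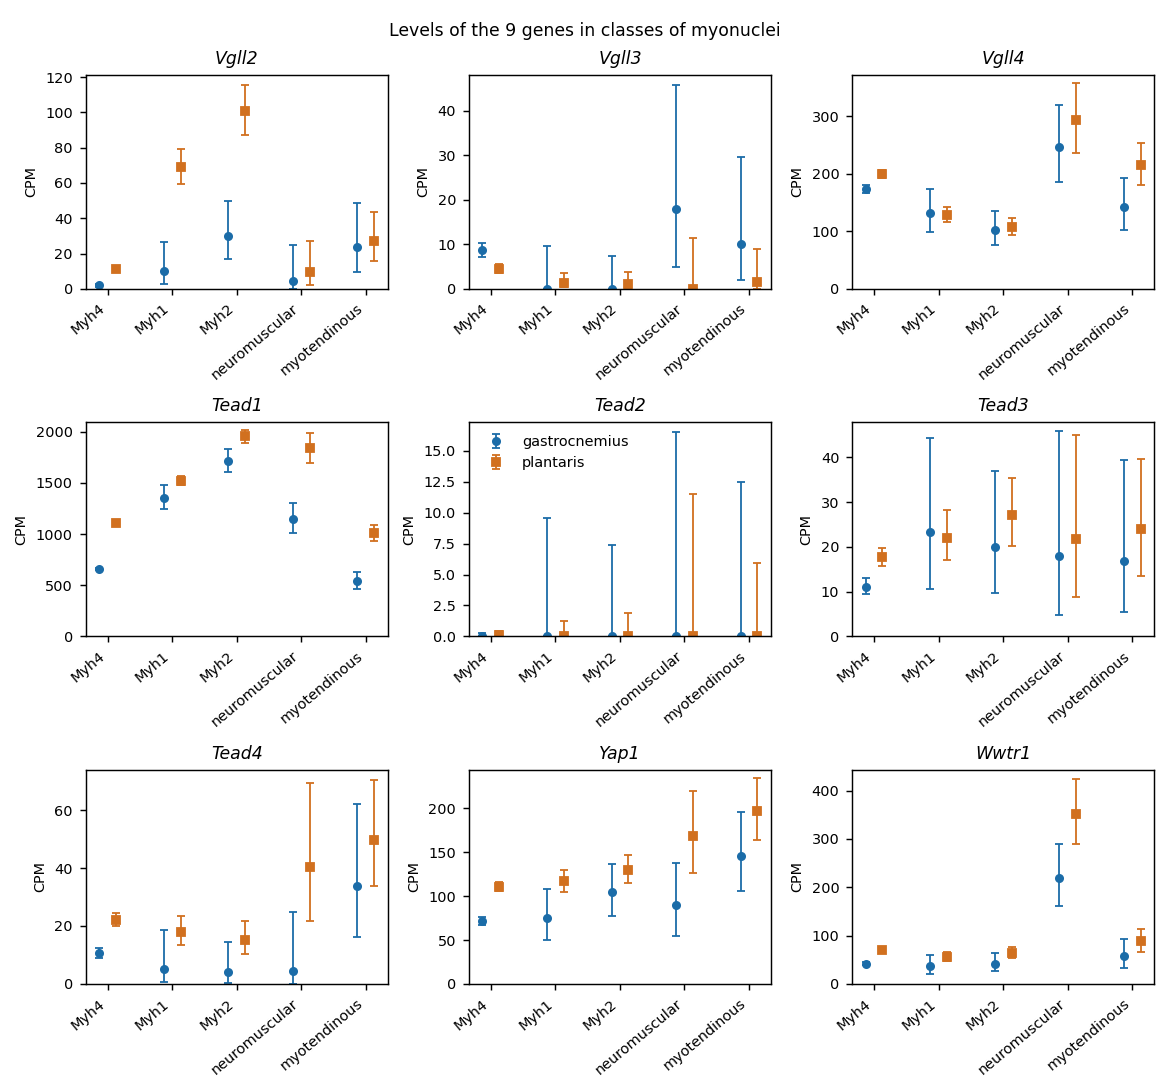
Level of each of the 9 genes in CPM by class of nuclei. Blue circles mark the gastrocnemius, orange squares the plantaris and bars the 95% Poisson intervals. Vgll2 climbs from Myh4 to Myh2 nuclei, and Wwtr1 is higher at the neuromuscular junction than in Myh4, Myh1 or Myh2 nuclei.

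Between the muscles, 3 of the 8 measured members differed by 2-fold or more over all myonuclei, against 11.5% of the 13174 genes measured. Vgll2 and Tead4 were higher and Vgll3 was lower in the plantaris, and Tead2 was not measured. The members' median log2 ratio of plantaris to gastrocnemius was 0.67, beside 0.18 over all genes. In macrophages of any depth, the background class, 4 of 6 measured members were past 2-fold (18.9% of all genes), with Vgll3, Tead1, Tead3 and Wwtr1 all higher in the plantaris and a median of 1.15, beside 0.13 over all genes there. The part of free RNA in the muscle differences was not tested. Scaling by the median gene, which shifts all ratios by 0.16, took Tead4 below 2-fold, and it moved the share of all called genes that were higher in the plantaris from 79.3% to 66.2%. Within Myh4 nuclei, 2 of 8 were past 2-fold (11% of all genes). Those were Vgll2 and Tead4, whereas after median-gene scaling they were Vgll2 and, lower, Vgll3, and the share of calls that were higher moved from 80.4% to 65.7%. Within Myh2 nuclei, 2 of 7 were past 2-fold, Vgll2 and Tead4, both higher (13.6% of all genes).

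Vgll2 showed the widest differences between fibre types. In the gastrocnemius its level was 1.98 CPM (95% interval 1.32 to 2.86, 28 UMIs) for Myh4 nuclei, 10.4 CPM (2.82 to 26.5, 4 UMIs) for Myh1 nuclei and 30.1 CPM (16.8 to 49.6, 15 UMIs) for Myh2 nuclei. In the plantaris it was 11.0 CPM (9.42 to 12.8, 174 UMIs), 68.9 CPM (59.7 to 79.1, 200 UMIs) and 100.6 CPM (87.1 to 116, 197 UMIs) in the same order. Both libraries thus ordered the fast classes from Myh4 to Myh1 to Myh2, with intervals that did not overlap in the plantaris. In the gastrocnemius the Myh1 interval, from 4 UMIs, overlapped both others. On the log2 scale, Myh2 nuclei exceeded Myh4 nuclei by 3.93 (2.92 to 4.88) in the gastrocnemius and by 3.19 (2.89 to 3.50) in the plantaris. The gastrocnemius comparison fell short of the expected count, so Vgll2 is not called measured in it. The step from Myh1 to Myh2 nuclei in the plantaris was 0.55 (0.26 to 0.84). Myh7 nuclei held 5 Vgll2 UMIs in the gastrocnemius and 1 in the plantaris, which places slow nuclei nowhere in this order.

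The share of nuclei with a Vgll2 UMI followed the level. It was 0.590% of Myh4, 3.05% of Myh1 and 8.05% of Myh2 nuclei in the gastrocnemius and 3.56%, 18.7% and 25% in the plantaris, at median depths between 2539.5 and 3436.5 UMIs. With each nucleus thinned to 1000 UMIs, the plantaris shares were 1.06%, 6.69% and 10.7%, and the gastrocnemius shares were 0.113%, 0.806% and 3.16%. Macrophages of any depth held Vgll2 at 4.69 CPM (1 UMI) in the gastrocnemius and 11.2 CPM (5.78 to 19.5, 12 UMIs) in the plantaris. Their thinned shares were 0% and 0.913%, and their unthinned shares were 0.671% and 2.59% at median depths of 896 and 1217 UMIs. The plantaris Myh4 level, at 11.0 CPM, was therefore not above this background, whereas the plantaris Myh1 and Myh2 levels were. In the gastrocnemius the macrophage interval, 0.119 to 26.1 CPM, overlapped those of Myh4, Myh1 and Myh2 nuclei. No fast class was thus shown to exceed background there.

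Of the nuclei with more than 1 Myh transcript, only those mixing Myh4 and Myh1 lay between their pure groups in the plantaris. No doublets were removed, and their part in the mixed groups was not tested. Among nuclei with 10 or more Myh UMIs in the plantaris, Vgll2 stood at 8.20 CPM where Myh4 made up 80% or more of them, at 35.8 CPM in 182 nuclei mixing Myh4 and Myh1, and at 64.3 CPM (52.4 to 78.1) where Myh1 made up 80% or more. It was 106.1 CPM (86.2 to 129) in 237 nuclei mixing Myh1 and Myh2, 78.0 CPM (58.3 to 102) in 175 nuclei of at least 80% Myh2, and 126.3 CPM (86.4 to 178) in 44 nuclei mixing Myh4 and Myh2, of which 47.7% held a Vgll2 UMI. The intervals of the 3 groups that held Myh2 overlapped, so they have no order among themselves. In the gastrocnemius these groups held 8 UMIs (32.9 CPM, 14.2 to 64.9, at least 80% Myh2), 2 UMIs (19.8 CPM, 2.40 to 71.5, Myh1 and Myh2) and 1 UMI (13.6 CPM, Myh4 and Myh2), from which no order can be read.

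**Figure D2:**
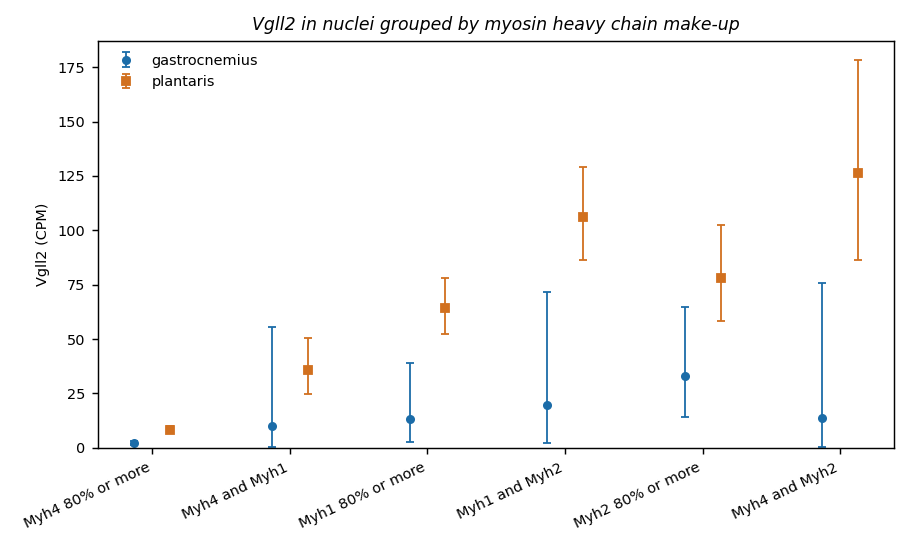
Vgll2 level in CPM by the mix of Myh transcripts in nuclei with 10 or more Myh UMIs, with 95% Poisson intervals, blue circles for the gastrocnemius and orange squares for the plantaris. The plantaris climbs from 8.20 CPM in nearly pure Myh4 nuclei to 106.1 CPM in nuclei mixing Myh1 and Myh2. Nearly pure Myh2 nuclei stand at 78.0 CPM and those mixing Myh4 and Myh2 at 126.3 CPM, with overlapping intervals. The gastrocnemius has the lower value in every mix of Myh4, Myh1 and Myh2.

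The plantaris level of Vgll2 exceeded the gastrocnemius level within each fast class. Over all myonuclei it was 3.57 CPM (2.69 to 4.64) in the gastrocnemius and 28.3 CPM (26 to 30.6) in the plantaris, a log2 difference of 2.99 (2.59 to 3.41). Within a class, the log2 difference was 2.47 (1.89 to 3.10) for Myh4 nuclei, 2.73 (1.36 to 4.62) for Myh1 nuclei and 1.74 (0.98 to 2.61) for Myh2 nuclei. The Myh4 levels, 1.98 and 11.0 CPM, were not above those of macrophages of any depth, 4.69 (1 UMI) and 11.2 CPM. The part of free RNA in the Myh4 difference was not tested. When the gastrocnemius was reweighted to the plantaris mix of classes, the difference over all myonuclei was 2.24, so it was smaller but kept its direction. Myh4 nuclei made up 72.1% of plantaris myonuclei and held 28.9% of their Vgll2 UMIs, whereas Myh2 nuclei made up 9.81% and held 32.7%.

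Few nuclei held a Vgll2 UMI. In the gastrocnemius its 55 UMIs lay in 52 of 5106 myonuclei, and no nucleus had more than 2. In the plantaris 602 UMIs lay in 458 of 5802 myonuclei, of which 110 had 2 or more, and the 10 nuclei with the most held 6.48% of the UMIs. The plantaris level therefore did not rest on a few nuclei. Plantaris Myh2 nuclei of clusters 4 and 9 stood at 92.0 and 107.8 CPM, a log2 difference of 0.23 (-0.20 to 0.66), and the 350 Myh4 nuclei in cluster 4 stood at 42.1 CPM, against 8.76 and 5.23 CPM in Myh4 nuclei of clusters 0 and 5.

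Vgll3 ran the other way, in myonuclei as between the muscles. It stood at 8.70 CPM (123 UMIs) in gastrocnemius Myh4 nuclei and at 4.42 CPM (70 UMIs) in plantaris Myh4 nuclei. Myh1 and Myh2 nuclei of the gastrocnemius held 0 UMIs, which allows levels of up to 7.77 and 6.02 CPM, and those of the plantaris held 4 UMIs (1.38 CPM) and 2 UMIs (1.02 CPM). Myh4 nuclei thus held 98.4% of the myonuclear Vgll3 UMIs in the gastrocnemius and 90.9% in the plantaris, beside 89.6% and 72.1% of myonuclei. Over all myonuclei the log2 ratio of plantaris to gastrocnemius was -1.17 (-1.59 to -0.74), from 8.11 and 3.61 CPM. Macrophages of up to 2500 UMIs held 0 Vgll3 UMIs in both libraries, which allows up to 25 and 12 CPM, and macrophages of any depth held 4.69 and 19.6 CPM (1 and 21 UMIs). The myonuclear level was therefore not shown to exceed the background in either library.

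Vgll3 was far more abundant outside the fibres. Muscle stem cells held 177 CPM (112 to 265, 23 UMIs) in the gastrocnemius and 65.0 CPM (36.4 to 107, 15 UMIs) in the plantaris. Mesenchymal progenitors, the fibroblast-like cells between fibres, held 78.3 CPM (64.2 to 94.5, 108 UMIs) and 57.2 CPM (47.0 to 69.0, 109 UMIs). These cells were the highest classes for the gene in both libraries, and their levels exceeded those of all macrophages. The log2 ratio of plantaris to gastrocnemius was -1.44 (-2.49 to -0.44) in stem cells and -0.45 in mesenchymal progenitors. Among the mesenchymal clusters, cluster 6 stood at 88.9 and 88.3 CPM, cluster 3 at 77.5 and 47.3 CPM and cluster 14 at 26.4 and 27.0 CPM, the last from 2 and 5 UMIs. Tenocytes held 41.0 and 28.7 CPM (2 and 4 UMIs).

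Vgll4 was the most abundant vestigial-like transcript in myonuclei by CPM per kilobase of exons, and its levels in the muscles lay close together. It stood at 169.5 CPM (163 to 176) in the gastrocnemius and 181 CPM (175 to 187) in the plantaris, a log2 difference of 0.09 (0.02 to 0.17) that turned to -0.07 with median-gene scaling. Across fibre types it was ordered against Vgll2, with 174, 132 and 102 CPM in Myh4, Myh1 and Myh2 nuclei of the gastrocnemius and 200, 129 and 107 CPM in those of the plantaris. The log2 ratio of Myh2 to Myh4 nuclei was -0.76 (-1.19 to -0.36) and -0.90 (-1.10 to -0.69). Stem cells exceeded mesenchymal progenitors, at 261 against 120 CPM in the gastrocnemius and 468 against 147 CPM in the plantaris, a log2 difference of 1.12 (0.54 to 1.66) and 1.67 (1.34 to 2.0). Macrophages held 142 and 215 CPM, so this transcript had no class at background from which to read the others.

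Tead1 was the most abundant of the 4 TEAD transcripts in myonuclei on every scale used. Over all myonuclei it stood at 719 CPM (705 to 732) in the gastrocnemius, where 75.5% of nuclei held a UMI, and at 1266 CPM in the plantaris, where 90.7% did. By class, Myh4, Myh1 and Myh2 nuclei held 659, 1357 and 1717 CPM in the gastrocnemius and 1110.1, 1521 and 1955 CPM in the plantaris. Both muscles thus had the order found for Vgll2, with Myh2 over Myh4 nuclei by 1.38 (1.28 to 1.48) on the log2 scale in the gastrocnemius and by 0.82 (0.77 to 0.87) in the plantaris.

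The muscle difference of Tead1 lay mostly in Myh4 nuclei. Their log2 ratio of plantaris to gastrocnemius was 0.75 (0.72 to 0.79), beside 0.16 (0.03 to 0.30) for Myh1 nuclei and 0.19 (0.08 to 0.30) for Myh2 nuclei, with intervals that do not meet that of Myh4 nuclei. The difference over all myonuclei, 0.82 (0.78 to 0.85), was 0.56 with the gastrocnemius reweighted to the plantaris mix and 0.66 with median-gene scaling. Macrophages of any depth also differed, at 305 CPM in the gastrocnemius and 699 CPM in the plantaris, a log2 difference of 1.20 (0.83 to 1.59).

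Among the other factors, Tead2 was close to absent from myonuclei, with 0 UMIs in the gastrocnemius (up to 0.195 CPM allowed) and 2 UMIs in the plantaris. Mesenchymal progenitors of any depth held 3 and 13 Tead2 UMIs, 1.69 and 3.86 CPM. Tead3 stood at 12.1 CPM (10.5 to 14.0) and 19.2 CPM (17.4 to 21.2) over all myonuclei, a log2 difference of 0.67 (0.41 to 0.92), and macrophages of any depth held 9.38 and 20.5 CPM. Its myonuclear level in the plantaris was therefore not above background, though Myh2 nuclei exceeded Myh4 nuclei there, at 27.1 against 17.6 CPM (log2 0.62, 0.17 to 1.05).

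Tead4, a factor induced during myoblast differentiation, was low in myonuclei and higher in the plantaris. It stood at 10.3 CPM (8.71 to 12.0) and 20.9 CPM (19.0 to 22.9), a log2 difference of 1.03 (0.76 to 1.30), and within Myh4 nuclei the difference was 1.06 (0.78 to 1.35). Unlike Vgll2 and Tead1, it was not higher in Myh2 than in Myh4 nuclei, at 4.01 against 10.6 CPM in the gastrocnemius and 15.3 against 22.1 CPM in the plantaris. Macrophages of any depth held 4.69 and 14.9 CPM. Its highest level was in vascular endothelium, at 117 CPM (42.8 to 254, 6 UMIs) and 134 CPM (64.3 to 247, 10 UMIs), against 7.25 and 7.88 CPM in mesenchymal progenitors.

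**Figure D3:**
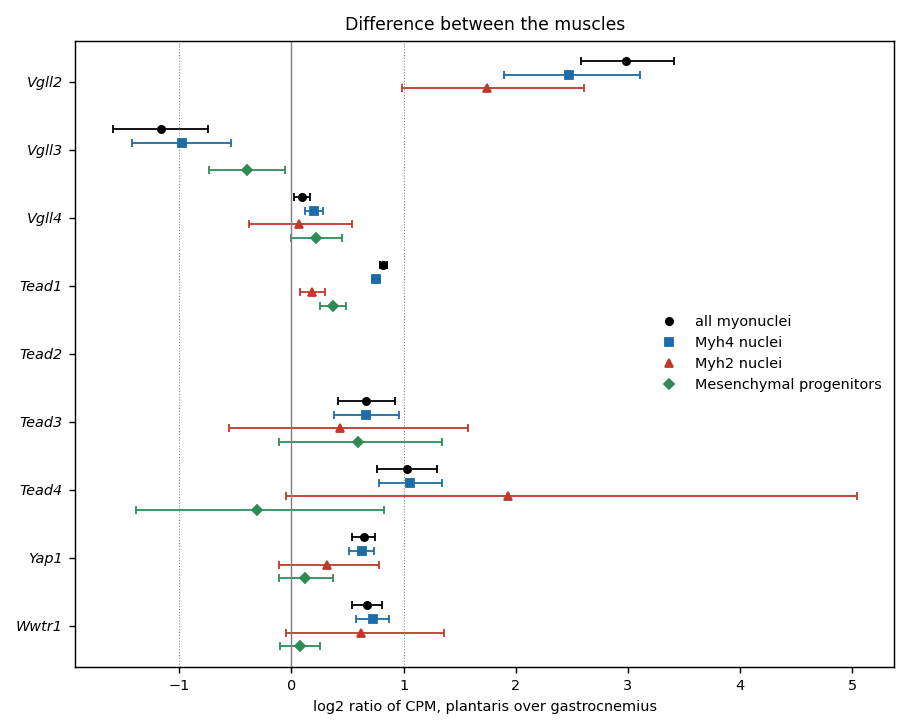
Log2 ratio of plantaris to gastrocnemius for each measured member in all myonuclei (black circles), Myh4 nuclei (blue squares), Myh2 nuclei (red triangles) and mesenchymal progenitors of any depth (green diamonds), with 95% intervals and dotted lines at 2-fold. Vgll2 lies furthest above 0 at 2.99 over all myonuclei, Vgll3 lies below 0 at -1.17, and no member passes 2-fold in mesenchymal progenitors.

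Yap1 and Wwtr1, the Hippo-regulated coactivators, were both higher in plantaris myonuclei and varied by less than 2-fold between Myh4, Myh1 and Myh2 nuclei. Yap1 stood at 73.6 CPM (69.4 to 78.0) in the gastrocnemius and 115 CPM (110 to 119) in the plantaris, a log2 difference of 0.64 (0.54 to 0.75). Its levels in Myh4, Myh1 and Myh2 nuclei were 71.7, 75.1 and 104 CPM in the gastrocnemius and 111, 117 and 130 CPM in the plantaris. Wwtr1 stood at 42.2 CPM (39.1 to 45.6) and 67.4 CPM (63.9 to 70.9), a log2 difference of 0.67 (0.54 to 0.81). Myh7 nuclei held few UMIs of either gene. Yap1 was at 224 CPM (125 to 369, 15 UMIs) in those of the gastrocnemius and had 2 UMIs in the plantaris. Wwtr1 was at 232 CPM (75.3 to 541, 5 UMIs) in the 6 plantaris nuclei and had 1 UMI in the gastrocnemius. Neither gene was thus shown to be higher in Myh7 nuclei of both libraries. The log2 ratio of Myh2 to Myh4 nuclei for Wwtr1 was 0.00 in the gastrocnemius and -0.10 in the plantaris, unlike Vgll2 and Tead1. Macrophages of any depth held Yap1 at 65.6 and 111 CPM and Wwtr1 at 51.6 and 115.6 CPM, close to or above the myonuclear levels, so the myonuclear levels of both were not shown to exceed background. In shallow macrophages the values were 33.3 and 27.9 CPM for Yap1 and 16.7 and 39.8 CPM for Wwtr1.

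Between fibre types as a whole, 2 of 7 measured members passed 2-fold for Myh2 against Myh4 nuclei in the gastrocnemius (25.2% of all genes). They were Tead1, higher, and Tead4, lower. The Tead4 call rests on 2 UMIs in Myh2 nuclei (4.01 CPM, 0.486 to 14.5), an interval that holds the Myh4 level of 10.6 CPM. Vgll2 fell short of the expected count there. In the plantaris 2 of 8 passed (20.5% of all genes), Vgll2 higher and Vgll3 lower. The Vgll3 ratio, -2.11, rests on 2 UMIs in Myh2 nuclei and turned to 0.34 with thinned nuclei. With median-gene scaling the share of all called genes that were higher in Myh2 nuclei of the gastrocnemius moved from 49.9% to 35.6%.

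Levels of different genes were compared per length. Per kilobase of merged exons (mm10 gene models), plantaris myonuclei held 93.3 CPM of Tead1, 33.5 of Vgll4, 17.1 of Vgll2, 14.1 of Wwtr1, 12.4 of Yap1, 5.81 of Tead4, 2.87 of Tead3 and 0.509 of Vgll3. In the gastrocnemius the order was Tead1 at 52.9, Vgll4 at 31.4, Wwtr1 at 8.84, Yap1 at 7.95, Tead4 at 2.85, Vgll2 at 2.16, Tead3 at 1.81 and Vgll3 at 1.14 CPM per kilobase of exons. On this scale the largest change of rank was that of Vgll2, from place 6 to place 3. Its place above Wwtr1 and Yap1 in the plantaris comes from division by its 1.65 kb of exons. By CPM alone it stood there at 28.3, below Yap1 at 115 and Wwtr1 at 67.4. In the gastrocnemius it stood at 3.57 CPM, below every member but Tead2. Whether 3' UMI counts scale with exon length was not tested. Whether intronic reads were counted is not given in the sources used here. Per kilobase of the whole gene, Vgll2, which is 5.97 kb long at chr10:52022502-52028471, came second in the plantaris at 4.73 CPM, next to Tead1 at 5.56 CPM over 227 kb at chr7:112679318-112906807.

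At the neuromuscular junction, where the motor nerve meets the fibre, Wwtr1 stood well above the rest of the fibre in both libraries. Junction nuclei held 219 CPM (162 to 290, 49 UMIs in 97 nuclei) in the gastrocnemius and 352 CPM (290 to 423, 113 UMIs in 82 nuclei) in the plantaris. Myh nuclei outside junctions held 39.0 and 62.4 CPM, so the log2 difference was 2.49 (2.04 to 2.91) and 2.50 (2.21 to 2.78). The share of nuclei with a Wwtr1 UMI was 23.7% and 57.3% at junctions and 9.64% and 16.5% outside, at median depths of 1748 and 3101.5 against 2935 and 3386.5 UMIs. With nuclei thinned to 1000 UMIs, the shares were 16.0% and 40.3% against 3.70% and 5.96%. Both junction levels exceeded that of macrophages of any depth (51.6 and 115.6 CPM). Among Myh4 nuclei alone the difference was as large, at 2.40 (1.91 to 2.85) and 2.69 (2.38 to 2.99).

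Markers of other cells were also higher in the junction nuclei. The 7 mesenchymal markers, 6 of which had UMIs in each library, summed to 224 and 184 CPM there, against 55.1 and 44.9 CPM in all myonuclei and 4469.7 and 3265 CPM in mesenchymal progenitors. Pi16 was at 0 in the gastrocnemius junctions and Dpp4 in the plantaris junctions. The 5 Schwann cell markers summed to 40.3 and 34.3 CPM, against 19.5 and 14.8 CPM in all myonuclei, and the defining gene Sox10 was at 0 in both. The 6 macrophage markers summed to 166 and 128 CPM, against 14.9 and 11.6 CPM. Their part in the Wwtr1 level was not tested.

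Other members moved less at the neuromuscular junction. Of the 4 measured in the gastrocnemius, 1 was past 2-fold, Wwtr1 (16.5% of all genes), and 3 of 7 in the plantaris were (17.6% of all genes), with Wwtr1 and Tead4 higher and Vgll2 lower. Tead4 there rested on 13 UMIs (40.5 CPM, log2 difference 1.04, 0.12 to 1.83), fell below 2-fold with median-gene scaling, and had 1 UMI in the gastrocnemius. Vgll2 had 1 and 3 UMIs. Tead1 was higher at the junction by 0.69 and 0.56 on the log2 scale (1150.3 and 1839 CPM), Vgll4 by 0.54 and 0.72, and Yap1 by 0.31 and 0.61.

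At the myotendinous junction, where fibres anchor to tendon, Tead4 and Yap1 led among the measured members. Tead4 held 33.9 CPM (16.2 to 62.3, 10 UMIs in 99 nuclei) and 49.7 CPM (33.7 to 70.5, 31 UMIs in 161 nuclei) there, against 9.91 and 19.7 CPM outside junctions. The log2 difference was 1.77 (0.68 to 2.69) in the gastrocnemius and 1.34 (0.76 to 1.87) in the plantaris. Yap1 held 146 and 197 CPM against 72.1 and 111 CPM, a log2 difference of 1.01 (0.54 to 1.45) and 0.83 (0.56 to 1.09). In the gastrocnemius 2 of 6 measured members, Tead4 and Yap1, passed 2-fold (16.9% of all genes), of which Yap1 dropped out with median-gene scaling. In the plantaris 1 of 7, Tead4, passed (17.7% of all genes). Tead1 was lower there by -0.39 and -0.30 on the log2 scale, at 542 and 1011 CPM, whereas Wwtr1 was higher by 0.56 and 0.50, less than at the neuromuscular junction. Vgll2 held 23.7 and 27.2 CPM at the myotendinous junction (7 and 17 UMIs), with overlapping intervals (9.53 to 48.8 and 15.9 to 43.6). The muscle difference of other myonuclei was therefore not found there. Outside junctions Vgll2 held 3.14 CPM (2.30 to 4.19) in the gastrocnemius and 28.1 CPM (25.8 to 30.5) in the plantaris. In the gastrocnemius the junction level was thus higher, with intervals that did not meet, but this comparison fell short of the expected count.

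**Figure D4:**
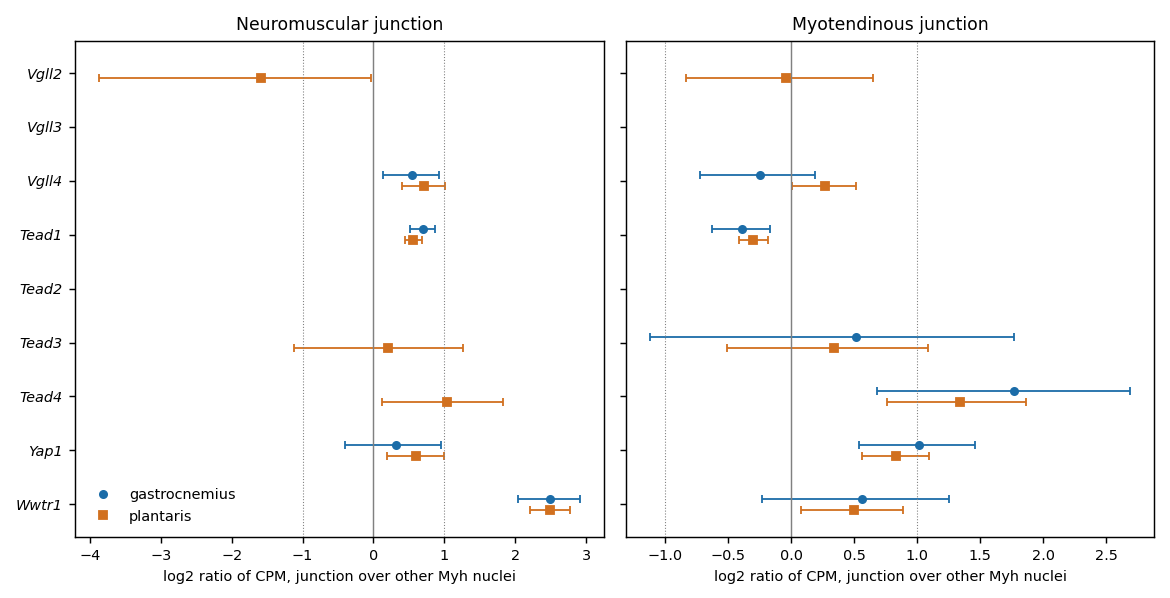
Log2 ratio of neuromuscular junction nuclei (left panel) and myotendinous junction nuclei (right panel) to Myh nuclei outside junctions for the measured members, with 95% intervals, blue circles for the gastrocnemius and orange squares for the plantaris; the x ranges differ. Wwtr1 stands apart at 2.49 and 2.50 on the left, and Tead4 (1.77 and 1.34) and Yap1 (1.01 and 0.83) lead on the right.

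Outside the fibres, Wwtr1 was found in the stromal and vascular classes. It stood at 235 CPM (210 to 262) and 263 CPM (241 to 287) in mesenchymal progenitors, at 430.2 CPM (266 to 658) and 488 CPM (379 to 619) in tenocytes, at 209 and 294 CPM in pericytes and at 253 and 322 CPM in endothelium. Stem cells held 161 and 234 CPM. Mesenchymal progenitors exceeded macrophages by 3.82 (1.95 to 6.87) and 2.72 (1.83 to 3.79) on the log2 scale. Within the mesenchymal class, cluster 14 was highest at 317 and 388 CPM, cluster 3 held 279.7 and 279 CPM and cluster 6, the highest for Vgll3, was lowest for Wwtr1 at 132 and 187 CPM. Yap1 was more even, at 120 and 144 CPM in mesenchymal progenitors, 192 and 143 CPM in stem cells and 164 and 179 CPM in tenocytes, and mesenchymal progenitors exceeded macrophages by 1.84 (0.46 to 3.74) and 2.37 (1.30 to 3.70).

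**Figure D5:**
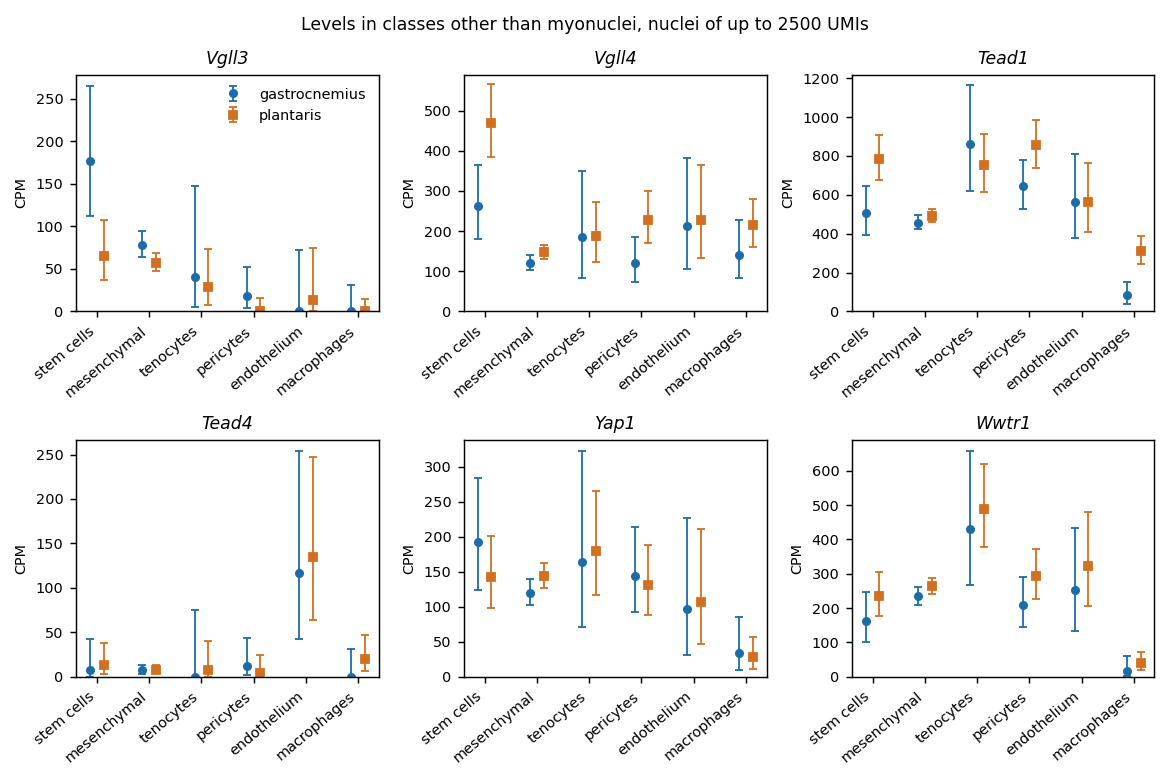
Level in CPM (linear axes from 0) of Vgll3, Vgll4, Tead1, Tead4, Yap1 and Wwtr1 in nuclei of up to 2500 UMIs of the classes outside the fibres, with 95% Poisson intervals, blue circles for the gastrocnemius and orange squares for the plantaris. Vgll3 is highest in stem cells of the gastrocnemius, at 177 CPM, while its stem cell and mesenchymal intervals overlap in the plantaris, Tead4 is highest in endothelium, at 117 and 134 CPM, and Wwtr1 is highest in tenocytes, at 430.2 and 488 CPM.

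Tead1 was lower in mesenchymal progenitors of any depth than in myonuclei, by -0.62 and -1.07 on the log2 scale, and it stood at 457 and 494 CPM in the shallow ones. Its shallow levels were 508 and 785 CPM in stem cells and 860.3 and 754 CPM in tenocytes, against 83.3 and 311 CPM in macrophages. Tead1 was the one TEAD transcript of this family found at 457 CPM or more in fibre, stem, mesenchymal, tendon and vascular nuclei alike. This cutoff is its own level in shallow mesenchymal progenitors of the gastrocnemius.

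Mesenchymal progenitors of any depth differed from myonuclei by 2-fold or more in 3 of 8 measured members in the gastrocnemius (45.1% of all genes) and in 5 of 8 in the plantaris (47.1% of all genes), the first count below and the second above the share of all genes. Vgll3 was higher by 3.13 (2.76 to 3.50) and 3.90 (3.51 to 4.30) and Wwtr1 by 2.42 (2.24 to 2.60) and 1.82 (1.70 to 1.95). Vgll2 was lower, by -1.66 from 2 UMIs and by -2.77 from 14 UMIs, and in the plantaris so were Tead1 and, by -1.82 (-2.54 to -1.17), Tead4. Stem cells of any depth differed from myonuclei in 2 of 4 measured members in the gastrocnemius (27% of all genes), Wwtr1 by 2.05 and Yap1 by 1.13, and in 2 of 7 in the plantaris (28.8% of all genes), Wwtr1 by 1.5 and Vgll2 by -1.68. Median-gene scaling dropped Yap1 from the stem cell count and added Tead1 to the mesenchymal count of the gastrocnemius. It also moved the share of all called genes that were higher from 68.2% to 50.9% and from 68.0% to 51.5% in mesenchymal progenitors, and from 55.9% to 33.8% and from 66.2% to 41.1% in stem cells. Between the muscles, 0 of 7 measured members passed 2-fold in mesenchymal progenitors (7.99% of all genes), where no test could be made, and Wwtr1 differed by 0.08.

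The rest of the pathway was described with 25 Hippo kinases, scaffolds and inhibitors and 23 known targets of YAP and TEAD, with Lats2, Amotl2 and Ptpn14 in both lists. Over all myonuclei 2 of 22 measured Hippo genes were past 2-fold between the muscles, both higher in the plantaris, with a median log2 ratio of 0.24. Of the targets, 2 of 18 were higher and none lower, with a median of 0.21. Over all genes 11.5% passed and the median was 0.18, so both lists were near the background. With 50 or more UMIs required, each count was 1. The protocadherin Fat4 stood at 0.324 and 1.55 CPM (log2 2.26, 0.89 to 3.97), the angiomotin Amotl2 at 1.56 and 5.30 CPM (1.77, 1.12 to 2.47) and the matricellular target Ccn2 at 0.584 and 1.83 CPM (1.65, 0.58 to 2.88), all at low levels. Ankrd1, another known target, was lower in plantaris Myh4 nuclei, at 0.316 against 1.70 CPM (-2.43, -4.17 to -1.01). The 2 medians lay close to that of all genes, unlike the median of 0.67 of the members.

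For Myh2 against Myh4 nuclei, 2 Hippo genes were past 2-fold higher in each muscle, of 19 and 21 measured, with 1 and 0 lower and medians of 0.48 and -0.11. Over all genes 25.2% and 20.5% passed 2-fold, 12.6% and 8.03% higher, so these counts were near the background. The angiomotin Amotl1, which binds YAP, stood at 474 against 105 CPM in the gastrocnemius (2.17, 1.96 to 2.37) and at 326 against 131 CPM in the plantaris (1.31, 1.18 to 1.44). Wwc2, a scaffold of the KIBRA family that activates the Lats kinases, stood at 146 against 52.6 CPM and at 145 against 63.7 CPM, log2 differences of 1.48 and 1.18. Of the targets, 1 of 8 was higher and 4 lower in the gastrocnemius, with a median of -0.99, and 1 of 14 was higher and 4 lower in the plantaris, with a median of -0.50. The kinase gene Lats2 was among those lower in the gastrocnemius, at 38.1 against 81.3 CPM (-1.09), and the nucleotide exchange factor gene Arhgef17 among those lower in the plantaris, at 5.62 against 20.7 CPM (-1.88). Amotl1 and Wwc2 were thus higher in Myh2 than in Myh4 nuclei of both libraries, as Vgll2 and Tead1 were, and their Myh1 levels were not compared. More of the measured targets were past 2-fold lower than higher.

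At the neuromuscular junction 2 of 17 and 3 of 19 measured Hippo genes and 3 of 6 and 3 of 7 targets were past 2-fold higher, with none lower. Over all genes 16.5% and 17.6% passed, 6.73% and 7.16% higher. The medians were 0.27 and 0.32 for the Hippo genes and 0.70 and 0.64 for the targets. Crim1, a transmembrane protein that binds bone morphogenetic proteins, stood at 2811 against 1019.8 CPM (1.46) and at 2727 against 852 CPM (1.68). The ligand Tgfb2 stood at 184 against 84.3 CPM (1.12, 0.64 to 1.57) and at 239.95 against 53.9 CPM (2.15, 1.80 to 2.49). The target Rbms3 and the Hippo gene Map4k4 were also past 2-fold in both libraries and are in the counts for this junction. Both were among the variable genes that defined the clusters and are not given as results, so these counts follow in part from the clustering. At the myotendinous junction no Hippo gene was past 2-fold higher and 2 and 0 were lower, of 17 and 21 measured. Of the targets there, 2 of 7 and 2 of 9 were past 2-fold higher, with 1 lower in each. Over all genes 5.66% and 6.90% were past 2-fold higher at this junction and 11.2% and 10.8% lower. Arhgef17 stood at 67.7 against 9.98 CPM (2.76, 2.01 to 3.44) and 84.9 against 17.2 CPM (2.30, 1.85 to 2.72), and Tgfb2 at 305 against 84.3 CPM (1.85) and 263 against 53.9 CPM (2.28). Tgfb2 was thus higher at both junctions in both libraries.

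Mesenchymal progenitors held more of both lists than myonuclei did. Of the Hippo genes, 11 of 22 and 13 of 23 were past 2-fold higher and 2 lower in each muscle, with medians of 1.09 and 1.57. Of the targets, 9 of 16 and 12 of 19 were higher and 3 and 4 lower, with medians of 1.52 and 2.07, against a background in which 45.1% and 47.1% of all genes passed 2-fold. Myof, a membrane-repair protein, stood at 155 against 1.82 CPM (6.41) and at 149 against 2.86 CPM (5.70), and Amotl2 at 25.4 against 1.56 CPM (4.03) and at 50.1 against 5.30 CPM (3.24). Stem cells of any depth held 7 of 17 and 9 of 21 measured Hippo genes past 2-fold higher and 1 and 0 lower, and 1 of 6 and 5 of 10 targets higher and 1 and 2 lower, where 27% and 28.8% of all genes passed. Crim1 was lower in both, by -1.80 and -1.80 in mesenchymal progenitors and by -1.57 and -1.22 in stem cells. Of the lists, 3 Hippo genes and 7 targets were among the variable genes used to cluster.

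The genes whose levels were most like those of 4 members were found by Pearson's r over 22 sums (11 classes in each library) among 9825 genes, a description in which all sums of a library share its depth and free RNA. For Vgll2 they were Bbip1 and Hspa9 (r = 0.85 each), Xirp1 (0.83), Gm20743 (0.82) and Csrp3 (0.82), where Xirp1 and Csrp3 code for sarcomere-associated proteins and Hspa9 for a mitochondrial chaperone. Among the genes most like Tead1 were Hadhb (0.87), Gm32569 (0.87), Akap1 (0.86) and Sucla2 (0.86), of which Hadhb, Akap1 and Sucla2 code for mitochondrial proteins. Vgll3 was most like Uggt2 (0.93), Hsd11b1 (0.90), Pcdh9 (0.89), Eda (0.88) and Usp54 (0.88), and Wwtr1 like Galnt18 (0.92), Plcb4 (0.90), Utrn (0.89), which codes for the junctional protein utrophin, Farp1 (0.89) and 9630014M24Rik (0.89).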

How the data were processed

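The deposited table holds UMI counts per gene and nucleus, made with Cell Ranger 6.0.1 on mm10, per the submitters' processing notes, and a second deposited table gives each barcode's library. Whether intronic reads were counted is not given in the sources used here. The 2 libraries held 19048595 and 29248275 UMIs in the analysed nuclei, with at least 500 UMIs per nucleus. Nuclei with 200 or more genes and at most 5% mitochondrial UMIs were kept (9150 of 9156 in the plantaris), scaled to 10000 UMIs and clustered on 2000 variable genes, 30 principal components and 15 neighbours (Leiden, resolution 1, scanpy 1.11.5, leidenalg 0.10.2). Clusters were named from markers. A doublet caller marked 0.136% and 0.0328% of nuclei, too few to have worked, and no doublets were removed. The libraries shared 17 barcode sequences.

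Counts were summed per class and library and given as CPM with exact Poisson intervals, and ratios with exact binomial intervals, at 95%. A count of 0 was given the limit that 3 counts allow. Reweighting, thinning, median-gene scaling and the depth cap of 2500 UMIs were computed from the counts as described beside their values. The scripts were tested on simulated counts. The pathway genes named were at most the 5 with the largest ratio per list and comparison, leaving out those that entered the clustering where clusters were compared. The members and lists were chosen with earlier results of these data known. There are no replicates and no test was made.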

Additional observations from a re-analysis of the deposited data

Results flagged for a closer look

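The unnamed clusters, which hold 6.88% of gastrocnemius and 5.78% of plantaris nuclei (1036 in all, mostly of cluster 7) and enter no comparison above, also held 8 of the 9 genes above the 1.33 CPM that a count of 0 allows. Over both libraries their levels were 13.3 CPM for Vgll2, 17.2 CPM for Vgll3, 216 CPM for Vgll4, 901 CPM for Tead1, 22.5 CPM for Tead3, 11.5 CPM for Tead4, 127 CPM for Yap1 and 149 CPM for Wwtr1.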

How the results depend on the processing

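No paired analysis was possible because each muscle has 1 library and no replicate. Of the ratios that answer a comparison, 53 values under the alternatives stayed within the counting interval and 8 did not. The log2 ratio of plantaris to gastrocnemius for Vgll2 over all myonuclei was 2.24 when reweighted to the plantaris mix, against 2.99, and ranged from 2.24 to 3.29 over 8 alternatives. Within Myh4 nuclei it was 3.27 with thinned nuclei, against 2.47. The ratio of Myh2 to Myh4 nuclei for Vgll2 was 5.08 with thinned nuclei in the gastrocnemius, against 3.93, and that of Myh1 to Myh4 nuclei in the plantaris was 3.10 with nuclei of at least 80% one myosin, against 2.65. For Tead1 over all myonuclei, 0.82 became 0.66 with median-gene scaling, 0.87 with the mean of each nucleus' own CPM, 0.88 with thinned nuclei and 0.56 when reweighted. The ratio of Myh2 to Myh4 nuclei for Vgll3 in the plantaris, -2.11 from 2 UMIs, turned to 0.34 with thinned nuclei. The causes were not tested. Among the other ratios 248 stayed and 23 moved. Of the counts over the pathway lists, 5 stayed and 5 fell, each by 1 or more, when 50 or more UMIs were required. Depth limits Vgll2 in gastrocnemius Myh1 nuclei (4 UMIs), Tead2 in all classes, and all members at the junctions of the gastrocnemius.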
